A study of Homo sapiens with 4 samples.

Results

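The 4 genes RNU4-1, RNU4-2, RNU5A-1 and RNU5B-1 encode the U4 and U5 small nuclear RNAs (snRNAs) of the tri-snRNP, a particle that joins the forming spliceosome. They were taken by symbol from tables of 18276 genes, in which each occurs once, and 63 rows of the tables are of type snRNA. The samples came from MDA-MB-231, a triple-negative human breast cancer cell line. A set of 2 libraries held RNA recovered with an antibody against SF3B6 (SF3B6 IP 1 and 2), and 2 libraries held input RNA without that recovery (input 1 and 2). Cells of both groups were UV-irradiated at 400 mJ/cm2, and their lysates were digested with micrococcal nuclease, so that RNA fragments were recovered. The design text describes the members of each group as biological replicates, and a study of this kind asks which RNAs SF3B6 contacts. Input was the one reference used here, so recovery by an unspecific antibody was not measured. The cell line tag is not the same in all samples, but each title gives MDA-MB-231.

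U4 and U5 belong to the small RNAs around which the spliceosome is built. U4 enters the spliceosome base-paired to U6 and keeps U6 inactive until a helicase separates them, after which U4 leaves. U5 stays through both steps of splicing and holds the ends of the exons in place with a conserved loop. Both reach the spliceosome together, in the tri-snRNP of U4, U6 and U5. SF3B6, once called p14, is a subunit of SF3b, a part of the U2 particle that sits at the intron branch point. SF3b is also part of the U11/U12 particle of the minor spliceosome, while U4 and U5 belong to particles without it.

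The U4 genes lie side by side on chromosome 12 (GRCh38.p14, RefSeq), RNU4-2 at 120291759 to 120291903 and RNU4-1 at 120293093 to 120293237, with 1189 bases between them. Both have a RefSeq length of 145 bases. All of RNU4-1 and 124 bases of RNU4-2 fall within the RefSeq span of SIRT4, a gene for a mitochondrial sirtuin. For SIRT4 itself, input 1 and 2 held 1 and 3 counts, and neither IP library held any. The U5 genes lie on chromosome 15, RNU5A-1 at 65296051 to 65296167 and RNU5B-1 at 65304677 to 65304793, separated by 8509 bases and each 117 bases long. Neither U5 gene overlaps another RefSeq gene. PARP16, the nearest RefSeq gene on the lower side of RNU5A-1, had 1 count in all libraries together. Copies of one snRNA are very similar in sequence, and the sources used here do not say how reads that map to several copies were counted. The sum over both copies of U4 or of U5 does not depend on how such reads were divided between those copies.

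The inputs held 317190 and 519836 counts in genes, and SF3B6 IP 1 and 2 held 55492 and 30431. A count of 0 would allow 54.1 and 98.6 CPM (counts scaled to a total of 1e+06) in the IP libraries and 9.46 and 5.77 CPM in the inputs. Replicates differed by more than sampling noise, with chi-square over degrees of freedom at 4.33 across 576 genes in IP and 1.72 across 6053 genes in input. All 8 markers fixed for MDA-MB-231 had input counts, from 25 to 2408. ESR1 and PGR, the estrogen and progesterone receptor genes that the line is known to lack, were not among the listed genes, and CDH1 and GATA3 had 4 and 19 input counts. Markers of blood, liver and vessel cells had 2 input counts in sum.

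U4 made up a larger part of the IP libraries than of the inputs, while the share of U5 differed by less than its error. U4 summed over both genes was 2.80-fold higher in IP (95% interval 2.10 to 3.73, edgeR adjusted p = 2.54e-06), and U5 was at 1.04-fold (0.662 to 1.64, adjusted p = 0.966). Of the 4 genes, both U4 genes passed the threshold as higher and neither U5 gene passed in either direction. Over all 3668 genes tested, 2.7% were higher and 1.36% lower by the same test. These fold changes are relative to the rest of each library, with TMM normalization. With the totals behind the deposited FPKM values instead, U4 was at -0.11 on the log2 scale with no call (edgeR adjusted p = 0.797). U5 passed as lower there, at -1.55 (edgeR adjusted p = 0.0171), as did 57.2% of tested genes. The median of tested genes was then -1.65. Input and IP share no absolute scale.

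RNU4-2, the more abundant U4 gene, had 90 and 67 counts in SF3B6 IP 1 and 2 and, in input 1 and 2, 273 and 324 counts. As a share of all counts this was 0.162% and 0.220% in IP against 0.0861% and 0.0623% in input. Both IP libraries lay above both inputs. This order was not counted over all genes for shares, but in CPM after TMM it was seen in 20.9% of tested genes. The exact 95% binomial intervals of the IP shares (0.130% to 0.199% and 0.171% to 0.280%) did not reach those of the inputs (0.0762% to 0.0969% and 0.0557% to 0.0695%). These intervals cover counting error only. After TMM the level was 2451 ± 663 CPM in IP and 810 ± 212 CPM in input (SD, n = 2 libraries each). The log2 fold change was 1.56 ± 0.21 (SE; edgeR adjusted p = 1.79e-06). At the pooled input share, 39.6 and 21.7 counts of RNU4-2 would have fallen in the IP libraries.

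RNU4-1, the neighbouring U4 gene, had 49 and 39 counts in SF3B6 IP 1 and 2 and 170 and 230 counts in the inputs. Its share was 0.0883% and 0.128% in IP against 0.0536% and 0.0442% in input. The groups did not overlap here either, and the binomial interval of the lowest IP share, 0.0653% to 0.117%, began above the 0.0623% at which that of the highest input share ended. Its TMM level was 1389 ± 439 CPM in IP and 533 ± 91.4 CPM in input (SD, n = 2). This gave a log2 fold change of 1.31 ± 0.22 (SE; edgeR adjusted p = 9.92e-05). Among the 3668 tested genes, 2.78% had a higher log2 fold change than RNU4-2 and 4.39% a higher one than RNU4-1. In CPM after TMM, the IP pair also lay above the input pair for both U4 genes, an order seen in 20.9% of all tested genes.

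The U4 share was larger in the shallower library of each group: 0.348% in SF3B6 IP 2, 0.250% in SF3B6 IP 1, 0.140% in input 1 and 0.107% in input 2. Since the IP libraries were the shallower ones, depth cannot be told apart from the antibody between the groups. The U5 share was likewise larger in the shallower library of each group, at 0.0329%, 0.0306%, 0.0426% and 0.0300% in the same 4 libraries, but between groups its ranges overlapped.

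RNU5A-1, the more abundant U5 gene, had 15 and 8 counts in SF3B6 IP 1 and 2 and 88 and 109 counts in input 1 and 2. Its share was 0.0270% and 0.0263% in IP, between the 0.0277% of input 1 and the 0.0210% of input 2. The IP libraries thus lay inside the range of the inputs before TMM. With TMM both IP libraries lay above both inputs, at 330 and 349 CPM in IP and 310 and 222 CPM in input 1 and 2. That order was seen in 20.9% of tested genes. After TMM the level was 339 ± 12.9 CPM in IP and 266 ± 61.8 CPM in input (SD, n = 2), with the log2 fold change at 0.40 ± 0.35 (SE; edgeR adjusted p = 0.633). The 95% interval of the fold change ran from 0.808 to 2.14. At the pooled input share, 13.1 and 7.16 counts would have fallen in the IP libraries, close to the 15 and 8 counted.

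RNU5B-1, the other U5 gene, was the one member with a log2 fold change below 0. It had 2 counts in each IP library and 47 counts in each input. Its share was 0.00360% and 0.00657% in IP against 0.0148% and 0.00904% in input, so that both IP libraries lay below both inputs. This order held after TMM as well, where it was seen in 28.5% of tested genes. The binomial intervals of the IP shares (0.000436% to 0.0130% and 0.000796% to 0.0237%) overlapped those of the inputs. Its TMM level was 65.6 ± 30.5 CPM in IP and 131 ± 49.2 CPM in input (SD, n = 2). The log2 fold change was -1.05 ± 0.73 (SE; edgeR adjusted p = 0.518), with a 95% interval from -2.53 to 0.44. At the pooled input share 6.23 and 3.42 counts would have fallen in the IP libraries. A difference of this size did not pass the threshold at this depth.

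**Figure D1:**
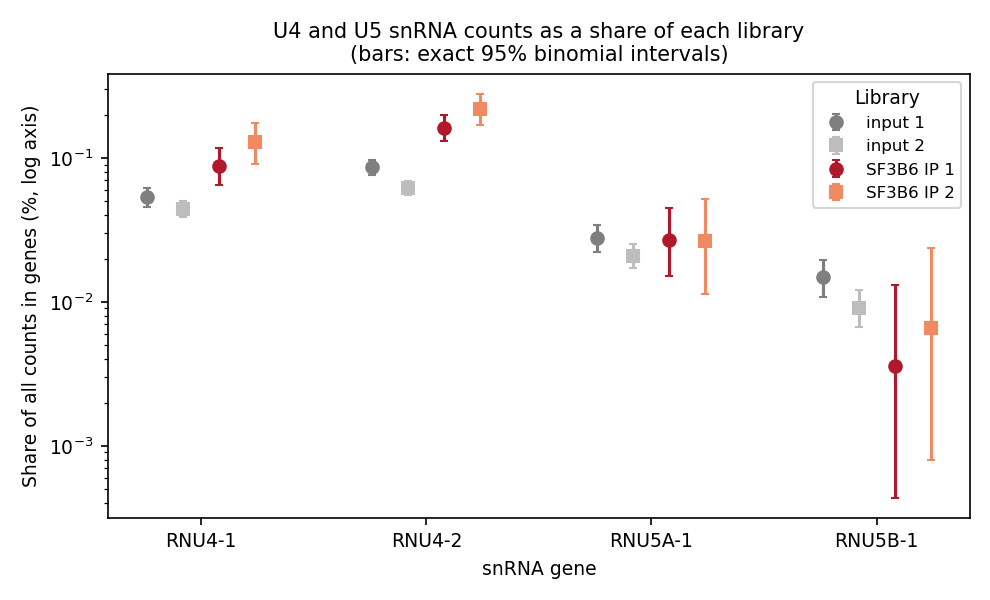
Share of all counts in genes (%, log axis) for the 4 genes in each of the 4 libraries, with exact 95% binomial intervals that cover counting error only. For RNU4-1 and RNU4-2 both IP libraries sit above both inputs, for RNU5A-1 they sit among the inputs, and for RNU5B-1, with 2 counts in each IP library, they sit below with intervals that overlap.

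A ratio of counts taken inside one library does not depend on how libraries are scaled. In input 1 and 2 there were 3.28 and 3.55 U4 counts for each U5 count. In SF3B6 IP 1 and 2 there were 8.18 and 10.6. The log2 ratio was 3.22 ± 0.26 in IP and 1.77 ± 0.08 in input (SD, n = 2), a difference of 1.45 or 2.73-fold, which is several times the spread within either group. The exact two-sided permutation test gave p = 0.333, the smallest that 2 against 2 libraries allow. U4 held 89.1% (exact 95% interval 83.1% to 93.5%) and 91.4% (84.7% to 95.8%) of U4 and U5 counts in the IP libraries. In the inputs it held 76.6% (73.0% to 80.0%) and 78.0% (74.8% to 81.0%). These intervals of IP and input did not overlap, though they cover counting error only. How often other pairs of genes separate the groups was not computed, here or for the ratios that follow. Without any one library the log2 difference ran from 1.26 to 1.63.

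The copies of U4 had similar proportions in all libraries. RNU4-2 made up 64.7% and 63.2% of U4 counts in SF3B6 IP 1 and 2 and 61.6% and 58.5% in input 1 and 2. Both IP values were above both input values, but by a log2 difference of 0.24 (1.18-fold), and all 4 exact intervals overlapped (from 53.3% to 72.7% in IP and from 54.3% to 66.2% in input). RNU5A-1 made up 88.2% and 80.0% of U5 counts in the IP libraries against 65.2% and 69.9% in the inputs. The intervals of these IP shares were wide, at 63.6% to 98.5% and 44.4% to 97.5%, and held both input values. The difference for U5 was 1.39 on the log2 scale and rested on 4 RNU5B-1 counts in IP. For both copy ratios the exact permutation p was 0.333, again the smallest possible.

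U1 and U2 gave further references inside the same libraries. U1, which recognises 5′ splice sites, was summed over 26 rows, and U2, which pairs with the branch point, over the 5 rows named RNU2. There were 0.702 and 1.02 U4 counts for each U1 count in the IP libraries against 0.284 and 0.326 in the inputs, a 2.78-fold difference (1.47 on the log2 scale, exact permutation p = 0.333). For U5 the ratio to U1 was 0.0859 and 0.0962 in IP against 0.0866 and 0.0918 in input, a log2 difference of 0.028 (exact permutation p = 1). The groups thus overlapped for U5 to U1 and did not for U4 to U1. Against U2 the log2 differences were -2.70 for U5 (exact permutation p = 0.333) and -1.25 for U4 (exact permutation p = 0.667). With the 5 rows named RNU2, the U4 counts per U2 count overlapped between groups. They were 2.78 and 15.1 in IP and 10.3 and 23.1 in the inputs. The U4 to U2 difference was -0.026 without SF3B6 IP 1, the library with 50 of the 57 IP counts in RNU2 rows, -2.47 without SF3B6 IP 2, and -1.83 and -0.67 when input 1 or input 2 was left out. With the 12 rows of plain symbol U2 added, it was -2.03 over all libraries. U2 then had 187 and 41 counts in IP and 121 and 63 in the inputs, beside 139 and 106 and 443 and 554 for U4. The U4 counts per U2 count then no longer overlapped between groups. Leaving out single libraries was not repeated with these rows. For the rows named RNU2 alone, the U5 to U2 difference was -1.66 without SF3B6 IP 1 and stayed negative without each of the other libraries.

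**Figure D2:**
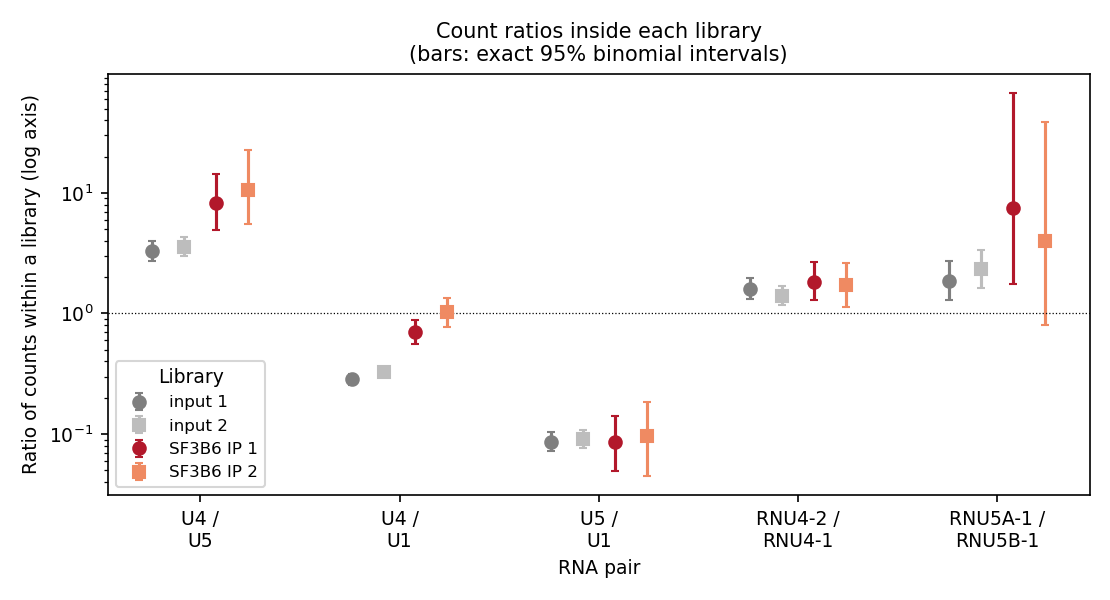
Ratio of counts inside each library (log axis) for U4 to U5, U4 to U1, U5 to U1 and for the copies of U4 and of U5, with exact 95% binomial intervals. U4 to U5 is 3.28 and 3.55 in input and 8.18 and 10.6 in IP, U4 to U1 shows a similar gap, and U5 to U1 lies between 0.0859 and 0.0962 in all 4.

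Per gene length, the levels had a fixed order. The deposited FPKM values, counts scaled to gene length and to a library total, were 842 and 948 for RNU4-2 in SF3B6 IP 1 and 2 and 913 and 902 in input 1 and 2. RNU4-1 stood at 459 and 552 FPKM in IP and at 568 and 641 FPKM in the inputs. Thus the RNU4-2 values of IP and input were close on this scale, while both RNU4-1 values in IP lay below both in input. With the totals behind these values as library sizes, RNU4-1 did not pass as lower (edgeR adjusted p = 0.597), where 57.2% of tested genes did. RNU5A-1 was at 171 and 138 FPKM in IP, below its 358 and 369 FPKM in the inputs. RNU5B-1 was at 22.8 and 34.4 FPKM in IP, below its 191 and 159 FPKM in the inputs. In every library the order was RNU4-2, RNU4-1, RNU5A-1 and RNU5B-1, and in input the gaps between neighbours in this order were larger than their SDs (7.38, 51.0, 8.03 and 22.6 FPKM, n = 2). Among all 18276 genes RNU4-2 ranked 12 to 19 by FPKM in the 4 libraries and RNU4-1 ranked 21 to 24. RNU5A-1 ranked 29 to 35, and RNU5B-1 39 and 44 in input but 116 and 70 in IP.

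In input, summed FPKM placed U4 next to U1 among the spliceosomal snRNAs. In input U1 was highest at 4485 and 4076 FPKM, followed by U4 at 1481 and 1543 and U5 at 549 and 528. In the IP libraries U1 was at 1593 and 1272 FPKM, U4 at 1301 and 1500 and U5 at 193 and 172. U4 was therefore below U1 in both inputs and in SF3B6 IP 1, and above it in SF3B6 IP 2. U6, the base-pairing partner of U4, was hardly counted: its 8 listed rows, all pseudogenes by symbol, held 1 and 2 counts in IP and 2 and 5 counts in the inputs. No U4 to U6 proportion was computed from these rows. U12, which takes the place of U2 in the minor spliceosome, was at 47.1 FPKM in both inputs and at 387 and 226 FPKM in IP. U2 in the rows named RNU2 was at 106 and 49.5 FPKM in the inputs and at 346 and 74.6 in IP. With the rows of plain symbol U2 added, it was at 299 and 130 FPKM in the inputs and at 1292 and 429 in IP. In both IP libraries U12, and U2 with those added rows, thus lay above U5, unlike in the inputs.

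**Figure D3:**
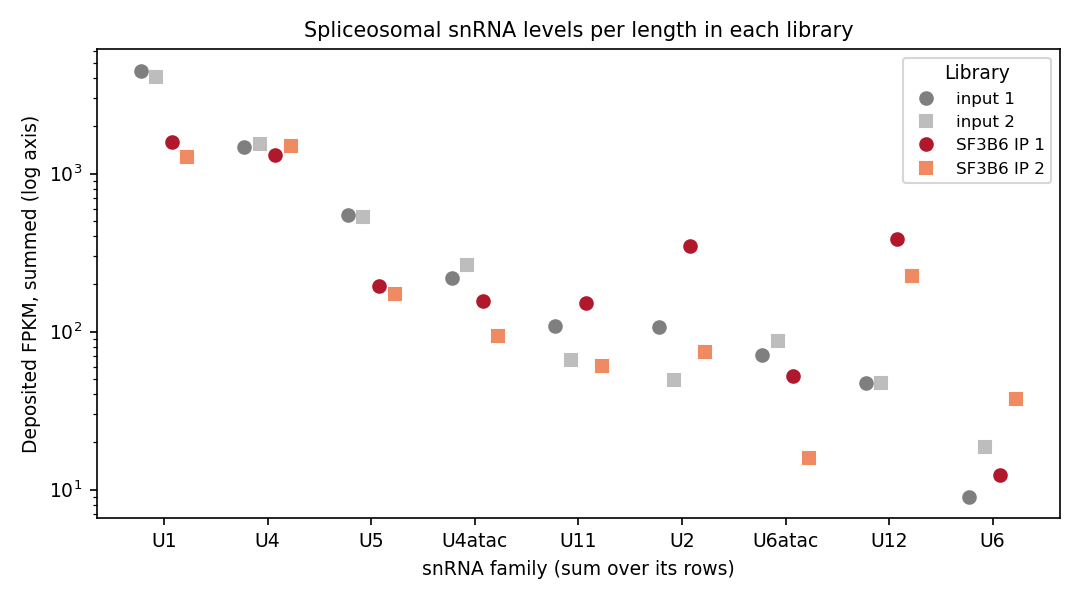
Deposited FPKM summed over the rows of each spliceosomal snRNA family (log axis) in the 4 libraries. The U2 points hold only the 5 rows named RNU2, without the 12 rows of plain symbol U2. U4 lies between 1301 and 1543 FPKM in all of them, U5 is at 549 and 528 in input and at 193 and 172 in IP, and U6 has the lowest values in input.

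FPKM and TMM scalings relate the counts to different totals, and the U4 values had different signs under them. The total behind the FPKM values was 0.357 and 0.236 of that of input 1 in SF3B6 IP 1 and 2, while counts in genes were 0.175 and 0.0959 of it. With these FPKM totals as library sizes, the median log2 fold change of all tested genes was -1.65, against -0.06 with TMM, -0.04 with RLE size factors, -0.19 with upper quartile scaling and -0.27 with library totals. RNU4-2 and RNU4-1 were then at -0.022 and -0.27 (edgeR adjusted p = 0.963 and 0.597), RNU5A-1 at -1.22 (0.0583) and RNU5B-1 at -2.63 (0.00790). U5 in sum was at -1.55 (adjusted p = 0.0171) and RNU5B-1 passed as lower, as did 57.2% of all tested genes at that scaling. In limma fits of log2(FPKM + 1) and log2(FPKM + 10), where 69.5% and 68.4% of tested genes were lower, RNU5B-1 also passed as lower (limma adjusted p = 7.18e-06 and 0.00156). RNU5A-1 passed only with the first (-1.24, limma adjusted p = 0.00760; 0.0774 with the second). A change of scaling moves all genes and their median by about the same amount, so the distance of a gene from that median is nearly fixed by construction and says nothing about stability. RNU4-2 stood 1.61 to 1.63 above that median, RNU4-1 1.37 to 1.38 above, RNU5A-1 0.43 to 0.46 above and RNU5B-1 0.99 below in each.

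**Figure D4:**
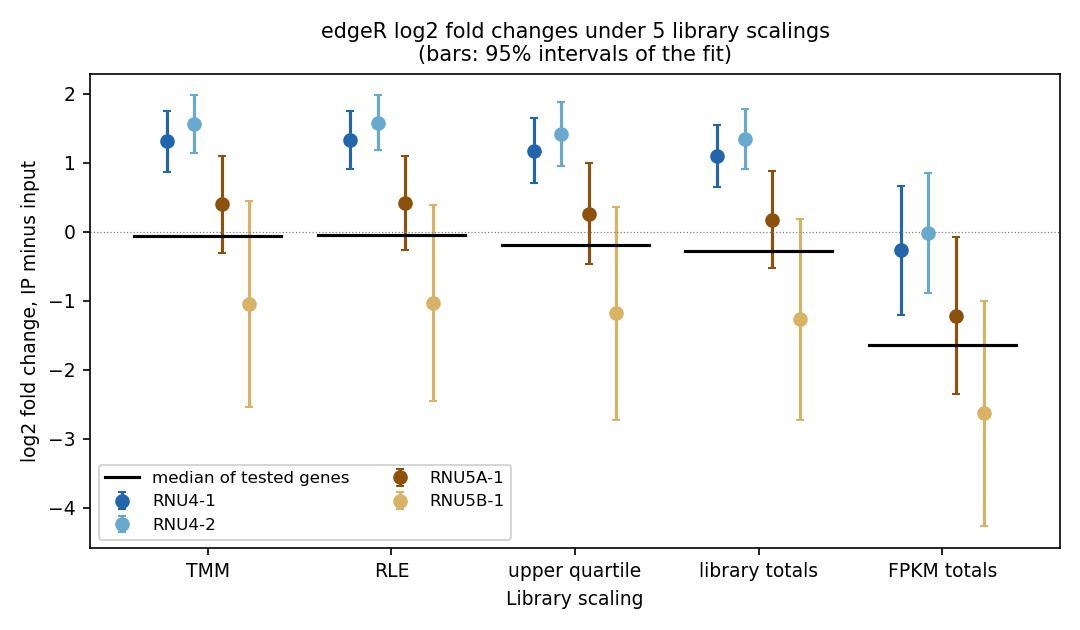
Log2 fold change (IP minus input) of the 4 genes with 95% intervals of the edgeR fit under 5 library scalings, and the median of all tested genes as a black line. The line lies at -0.06 with TMM and at -1.65 with the FPKM totals, a change of scale that moves all genes together by construction, and the signs of the U4 genes and RNU5A-1 turn at that scaling.

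Both U4 calls held without each library in turn, where 0.476% of tested genes were called higher without SF3B6 IP 1, 1.51% without SF3B6 IP 2, and 3.08% and 2.13% when input 1 or input 2 was left out. RNU4-2 ran from 1.22 to 1.92 on the log2 scale, with adjusted p of at most 0.00880, and RNU4-1 from 0.95 to 1.56, with adjusted p of at most 0.00642. DESeq2 also passed both, at 1.61 (adjusted p = 0.00424) and 1.38 (0.0325), where 0.954% of tested genes were higher. They passed as well with RLE size factors, upper quartile scaling, library totals and a replicate block, which called 3.16%, 1.83%, 1.64% and 1.85% of tested genes higher. The same held with no filter (0.274% higher) and with a minimum of 50 counts in 2 libraries (7.17% higher). For U5 in sum the log2 fold change ran from -0.22 to 0.37 without 1 library, and so had no settled sign.

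Other rows of the same families had few counts. RNU5D-1, a variant U5 gene on chromosome 1, had 2 counts in SF3B6 IP 1, 0 in SF3B6 IP 2 and 5 and 15 in the inputs. RNU5F-1, another variant, had 2 and 3 input counts and the pseudogene RNU5A-8P had 3 and 4, with 0 in IP for both. With RNU5D-1 and RNU5F-1 added, U5 was at 0.04 ± 0.30 on the log2 scale (SE; edgeR adjusted p = 0.976). U4atac and U6atac form the corresponding duplex of the minor spliceosome. U4atac had 15 and 6 counts in IP, with 59 and 85 in the inputs, and a log2 fold change of 0.72 ± 0.37 (SE; adjusted p = 0.328). U6atac had 5 and 1 counts in IP, with 19 and 28 in the inputs, and was at 0.52 ± 0.69 (adjusted p = 0.809). In the same edgeR fit U2, in the rows named RNU2, was at 3.25 ± 0.38 (adjusted p = 3.11e-09), but at 1.60 (0.398) without SF3B6 IP 1 and at 4.04 and 2.40 without input 1 and 2. U12 was at 4.37 ± 0.33 (adjusted p = 2.05e-15) and passed without each library in turn, and U1 was at -0.014 ± 0.22 (0.989). U11, which pairs with the start of minor introns, was at 2.03 ± 0.50 (edgeR adjusted p = 0.00883), but did not pass without SF3B6 IP 1 (1.15, 0.640), input 1 (2.58, 0.547) or input 2 (1.36, 0.654). With the FPKM totals U2 still passed as higher (edgeR adjusted p = 0.0191), U12 was at 2.71 (0.000208), U11 at 0.37 (0.577) and U1 at -1.58 (0.00111). At that scaling 57.2% of tested genes passed as lower and the median of tested genes was -1.65, so U1 was near that median. The point estimate of U4 lay between those of U1 and U2. Without SF3B6 IP 1 those of U4 and U2 were 1.58 and 1.60, but U2 then rested on 7 IP counts in RNU2 rows. With the rows of plain symbol U2 added, its share was 0.337% and 0.135% in IP against 0.0381% and 0.0121% in the inputs. No fit was made with those rows.

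Few messenger RNAs of the proteins that work with U4 and U5 had enough counts to be tested. Of 21 gene symbols named for tri-snRNP proteins, 20 were listed, with SNU13 among them and NHP2L1 not. Of these 20, 10 were tested, with 0 higher and 0 lower (edgeR). Their median log2 fold change was 0.09, against -0.06 over all tested genes. With 2.7% higher and 1.36% lower over all tested genes, a count of 0 among 10 is near the background and is no result about these genes. PRPF8, the large U5 protein at the core of the spliceosome, had 7 counts in each IP library but 102 and 183 in the inputs, at -0.84 ± 0.36 (SE; adjusted p = 0.225). SNRNP200, the U5 helicase that unwinds U4 from U6, had 11 and 4 counts in IP, with 87 and 169 in the inputs, at -0.59 ± 0.36 (adjusted p = 0.432). The Sm core proteins, which form a ring on U4 and U5, had 2 of 8 genes tested, with SNRPB at -0.97 ± 0.61 (0.457) and SNRPD2 at -0.22 ± 0.76 (0.944). Of the LSm proteins of U6, 2 of 7 were tested, LSM7 at -0.11 and LSM4 at -0.49, and neither passed (adjusted p = 0.975 and 0.861).

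Lists of the making of snRNAs had even fewer tested genes, and their 0 calls are likewise near that background. For snRNP assembly and import, 2 of the 18 listed genes were tested: KPNB1, an importin, at 0.13 ± 0.32 (SE; edgeR adjusted p = 0.908) and GEMIN4, of the SMN complex, at 0.02 ± 0.63 (0.994). For snRNA transcription and end processing, 6 of 21 were tested, with a median log2 fold change of 0.74. INTS11, the Integrator subunit that cuts the ends of new snRNAs, had 23 and 6 counts in IP, with 52 and 102 in the inputs, and was at 1.09 ± 0.33 (adjusted p = 0.0532). INTS1, the largest Integrator subunit, was at 0.52 ± 0.24 (0.267). For SF3b and SF3a, 3 of 12 genes were tested, with SF3B2 at 0.35 ± 0.49 (0.818) and SF3B3 at 0.18 ± 0.52 (0.931). Over both IP libraries, tested genes had a median of 8 counts.

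Profiles over the 4 libraries were compared by the root mean square difference of centred log2 CPM among 3561 genes. Members, pseudogenes and genes with clone names were left out of this search. The 3 nearest to U4 were GPANK1 and EMC3, with identical counts (3 and 2 in IP, 9 and 10 in input, at 0.0829 for both), and SNORD3A (0.0895). SNORD3A, a gene of the U3 snoRNA that acts in ribosome production, was the one of them with many counts, 821 and 610 in IP, with 2992 and 3465 in the inputs, and a log2 fold change of 1.34 ± 0.26 (SE; edgeR adjusted p = 0.000995). GPANK1 and EMC3 were at 1.54 ± 0.76 (adjusted p = 0.322). The 3 nearest to U5 were the protein-coding genes ZNF587 (0.0235), RNF10 (0.0470) and POMT1 (0.0702), each with 5 to 8 counts in SF3B6 IP 1 and 3 to 5 in SF3B6 IP 2. With 4 libraries and so few counts, such likeness is a description only.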

How the data were processed

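The authors deposited read counts per gene, not normalized, and FPKM values of the same genes, in 2 SF3B6 IP and 2 input libraries. HISAT2, HOMER and hg38 are named in the submitters' processing notes without role or version. The sources used here give no counter, strand setting or treatment of reads with several positions.

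IP was compared with input by edgeR's quasi-likelihood test (edgeR 4.0.16, R 4.3.3) on the deposited counts of all genes, with TMM, the default filter (3668 genes kept), no term but group, and a Benjamini-Hochberg adjusted p threshold of 0.05. SEs were computed from the log2 fold change and F. For the U4 and U5 sums their rows were replaced by the sums, and for the other families all snRNA families were summed together. Since spread is estimated over many genes, the SE of 1 gene may understate its own scatter. Alternatives were other scalings, filters of none or 50 counts in 2 libraries, DESeq2 1.42.0, limma 3.58.1 on log2(FPKM + 1) and log2(FPKM + 10), a replicate block and leaving out each library. FPKM totals were recovered from count over FPKM, relative to input 1, over 93 to 917 genes. On simulated counts edgeR called 200 of 200 changed and 9 unchanged of 3262 genes. Detection at the counts and effect sizes of the 4 genes was not tested separately. Binomial intervals (exact, Clopper-Pearson, 95%) and the floor of 3 counts cover counting error only.

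Named genes were the members, the snRNA families, other U4 and U5 rows with at least 5 counts, neighbours, the 2 most counted members of each list and any called, and the 3 nearest profiles (mean CPM of at least 20, prior count 0.5). The members and lists were chosen with earlier results of these data known. The knockdown RNA-seq and any IgG library are not analysed here. No sequence of the 4 RNAs was in the tables used, so none is printed.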

Additional observations from a re-analysis of the deposited data

How the results depend on the processing

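With RLE size factors, upper quartile scaling, library totals, other filters, DESeq2, the replicate block and without each library in turn, both U4 genes and their sum were higher in IP and passed. The U4 sum ran from 1.11 to 1.81 on the log2 scale without 1 library. On the FPKM scale the signs turned. With FPKM totals, log2(FPKM + 1) and log2(FPKM + 10), RNU4-1 was at -0.27, -0.26 and -0.26, RNU4-2 at -0.022 in each, and the U4 sum at -0.11 in each. RNU5A-1 was at -1.22, -1.24 and -1.19 and also turned with no filter (-0.084), RNU5B-1 at -2.63, -2.60 and -2.27 (past the threshold in all 3), and the U5 sum at -1.55, -1.56 and -1.51. These 3 alternatives divide by other library totals, and the count of called genes there was 2115, 2573 and 2527, against 149 with TMM.

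The U5 sum was also below 0 with upper quartile scaling (-0.076), library totals (-0.17), no filter (-0.43) and the replicate block (-0.042), and ran from -0.22 to 0.37 without 1 library. The U5 to U1 log2 difference ran from -0.054 to 0.11 without 1 library. RNU5B-1 could not be tested without either input or at 50 counts, and had no DESeq2 adjusted p. DESeq2 called 38 genes in all and the replicate block 90. Without 1 library the count ran from 31 to 164. In a fit without 1 library the lone library was assumed to vary like the other group. Deviations of same-numbered libraries from their group means were uncorrelated (-0.0016 over 3668 genes). With a median of 8 IP counts per tested gene over both libraries, counting noise could hide a pairing, so this cannot decide it. The replicate block changed no call of a member. Limits are the choice of library total, 2 libraries a group, and IP depth, with 17 and 10 U5 counts in IP.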
